A study of Homo sapiens with 6 samples.

Results

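HIF factors and hypoxia-inducible genes are described here by 10 gene symbols: the alpha subunits HIF1A and EPAS1, and HILPDA, ADM, NDRG1, VEGFA, CA9, BNIP3, EGLN3 and ANKRD37, which hypoxia-inducible factors are known to activate outside glycolysis. Every array probe annotated to one of these symbols was taken, which gave 13 of the 48803 probes. These probes cover 9 of the 10 genes, out of 18852 named genes in all, and CA9 was not analysed here. The genes were put together with earlier results of the same comparison in view, so the inhibitor-against-control differences of these genes are descriptions and support no inference.

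The cells were ES-2, an established line labelled as ovarian cancer and described by the study as clear cell. One group was transfected with a hairpin inhibitor of miR-182 (50 nM), a modified RNA that holds back the mature microRNA. The other received a negative control hairpin inhibitor modelled on a worm microRNA unlike human ones. RNA was taken 48 h after transfection from 3 biological replicates per group, 1 Illumina bead array each. The series' design text calls the agent a mimic, whereas every sample label names an inhibitor, and that wording is used here. All 6 arrays come from this one line after transfection with X-tremeGENE; mock-transfected cells are mentioned but not analysed here, the concentration of the control hairpin is not stated, and no label says that oxygen was lowered. No probe of miR-182 itself was used, so its inhibition is not checked by these values.

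Hypoxia-inducible factors are pairs of an oxygen-labile alpha subunit and a stable beta subunit. In normal oxygen, prolyl hydroxylases mark the alpha subunit for the VHL ubiquitin ligase, so activity is set mostly by the amount of alpha protein, which an RNA array does not measure. When oxygen falls, the pair binds a short core sequence near its targets, and in clear cell carcinomas of the ovary this programme is known to be active.

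The microRNA and the promoters are shown because one is what the hairpin blocks and the others are where the core sequence would be read. RefSeq gives the main mature form of miR-182 at chr7:129770447-129770470 on the minus strand of GRCh38.p14, with its seed, bases 2 to 8, in capitals.
hsa-miR-182-5p: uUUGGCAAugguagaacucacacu

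Promoter windows of 300 bases, from 250 before to 50 after the start of the gene, were given by RefSeq (GRCh38.p14) for 7 of the 10 genes, in 8 windows because HIF1A has 2. They were searched for the HIF core ACGTG and its variant GCGTG on both strands (CACGT and CACGC on the other one). The letters CACGTG hold ACGTG on both strands and count once for each. Of the 35116 windows of all genes, 21.4% hold ACGTG, 36.5% hold GCGTG and 48.4% hold either one. The windows of 3 genes are printed, with the matches in capitals: ADM, the gene whose groups did not overlap, and the pair with the most matches, BNIP3 and ANKRD37. They lie at chr11:10304823-10305122 on the plus strand, chr10:131981874-131982173 on the minus strand and chr4:185396591-185396890 on the plus strand.
ADM: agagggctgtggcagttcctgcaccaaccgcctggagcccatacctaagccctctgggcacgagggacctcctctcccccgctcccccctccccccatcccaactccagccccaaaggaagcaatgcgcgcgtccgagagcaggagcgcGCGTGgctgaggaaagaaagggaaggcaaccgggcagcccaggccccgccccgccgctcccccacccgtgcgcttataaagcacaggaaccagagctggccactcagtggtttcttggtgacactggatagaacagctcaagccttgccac
BNIP3: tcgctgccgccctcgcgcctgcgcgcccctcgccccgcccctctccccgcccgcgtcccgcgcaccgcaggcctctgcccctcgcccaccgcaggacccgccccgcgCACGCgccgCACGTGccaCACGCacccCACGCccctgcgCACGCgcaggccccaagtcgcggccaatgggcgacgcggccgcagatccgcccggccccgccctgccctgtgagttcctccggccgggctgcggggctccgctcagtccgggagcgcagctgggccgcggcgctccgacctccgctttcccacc
ANKRD37: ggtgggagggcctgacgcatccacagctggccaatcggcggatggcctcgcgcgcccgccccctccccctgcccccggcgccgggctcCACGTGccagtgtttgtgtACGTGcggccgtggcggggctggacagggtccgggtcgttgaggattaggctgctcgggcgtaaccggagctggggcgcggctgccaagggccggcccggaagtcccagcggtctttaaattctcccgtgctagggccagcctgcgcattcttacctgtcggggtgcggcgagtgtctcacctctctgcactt

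The BNIP3 window held 6 matches, all between 104 and 143 bases before the start, 2 of them ACGTG. The ANKRD37 window held 3 matches, all ACGTG, at 143 to 162 bases before the start. ADM held a single GCGTG 101 bases before the start. Of the windows not printed, that of CA9 held 1 ACGTG match 18 bases before the start, EPAS1 held 1 GCGTG at 117, the first HIF1A window held 1 GCGTG at 204, and the second HIF1A window and EGLN3 held none. A match is only these letters in this window, and a window without one says nothing about HIF binding elsewhere.

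Each array had a median of 40 to 41 beads behind a probe, and on 41.73% to 46.05% of probes the signal exceeded background (detection p under 0.05). Values are log2 intensities after background correction and quantile normalization. A level is not compared between probes, except with the lowest value of a detected probe on an array. A gene was tested where its probe was detected on at least 3 of the 6 arrays, which left 12087 genes, each by its brightest probe. In limma, 0 of them passed an adjusted p of 0.05 (lowest 0.406) and 925, or 7.65%, had an unadjusted p under 0.05. Of 13 genes with a probe on a list of clear cell ovarian and related markers, ANXA4, ARID1A, KRT7, KRT8, KRT18, VIM and WT1 were detected on all 6 arrays, PAX8 on 3, EPCAM on 2, and NAPSA, GPX3, CDH1 and ESR1 on none. The summed signal of the other cell types' markers overlapped between the groups: 1826 to 1922 units on inhibitor arrays and 1863 to 1911 on control arrays for 7 fibroblast genes, 2995 to 3211 and 3110 to 3249 for 7 leukocyte genes, and 2790 to 2818 and 2815 to 3017 for 6 endothelial genes. Many of these markers were above background: PDGFRA, COL1A1 and THY1 of the fibroblast list, CD14, CD68, MS4A1 and FCER1G of the leukocyte list and PECAM1, CDH5, TIE1 and ENG of the endothelial list were detected on all 6 arrays. CDH5, for example, averaged 10.04 on inhibitor arrays and 10.12 on control arrays, and CD68 10.97 and 11.01. LUM, COL1A2, PTPRC and VWF were not detected on any array. The groups overlapped for every fibroblast, leukocyte and endothelial marker that was tested. On the clear cell list they stood apart for ANXA4 alone, with the inhibitor lower (−0.27 ± 0.09), as for 6.23% of all genes. ANXA4 averaged 4.79 on inhibitor arrays and 5.06 on control arrays, also near the lowest detected value. The part of all these markers in the results below was not tested.

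Of the 10 genes, 8 were tested, and 0 passed an adjusted p of 0.05 in limma, against 0% of all genes tested. Their adjusted p-values ran from 0.567 for ADM to 0.979 for VEGFA. By their brightest probes, 5 of the 8 lay below 0 (inhibitor minus control) and 3 above, where 50% of all genes lay below 0. Their median log2 difference was −0.07, beside 1.5e-05 over all genes. ADM and HILPDA had an unadjusted p under 0.05 on the lower side, where 4.15% of all genes did. For ADM alone among the 8 the groups did not overlap, with the inhibitor lower, as for 6.23% of all genes; for none of the 8 did they stand apart with the inhibitor higher, as for 6.8% of all genes. Because the genes were chosen on this contrast, nothing is read from these counts. In a bulk sample, fewer cells with a transcript and less transcript per cell cannot be told apart.

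**Figure D1:**
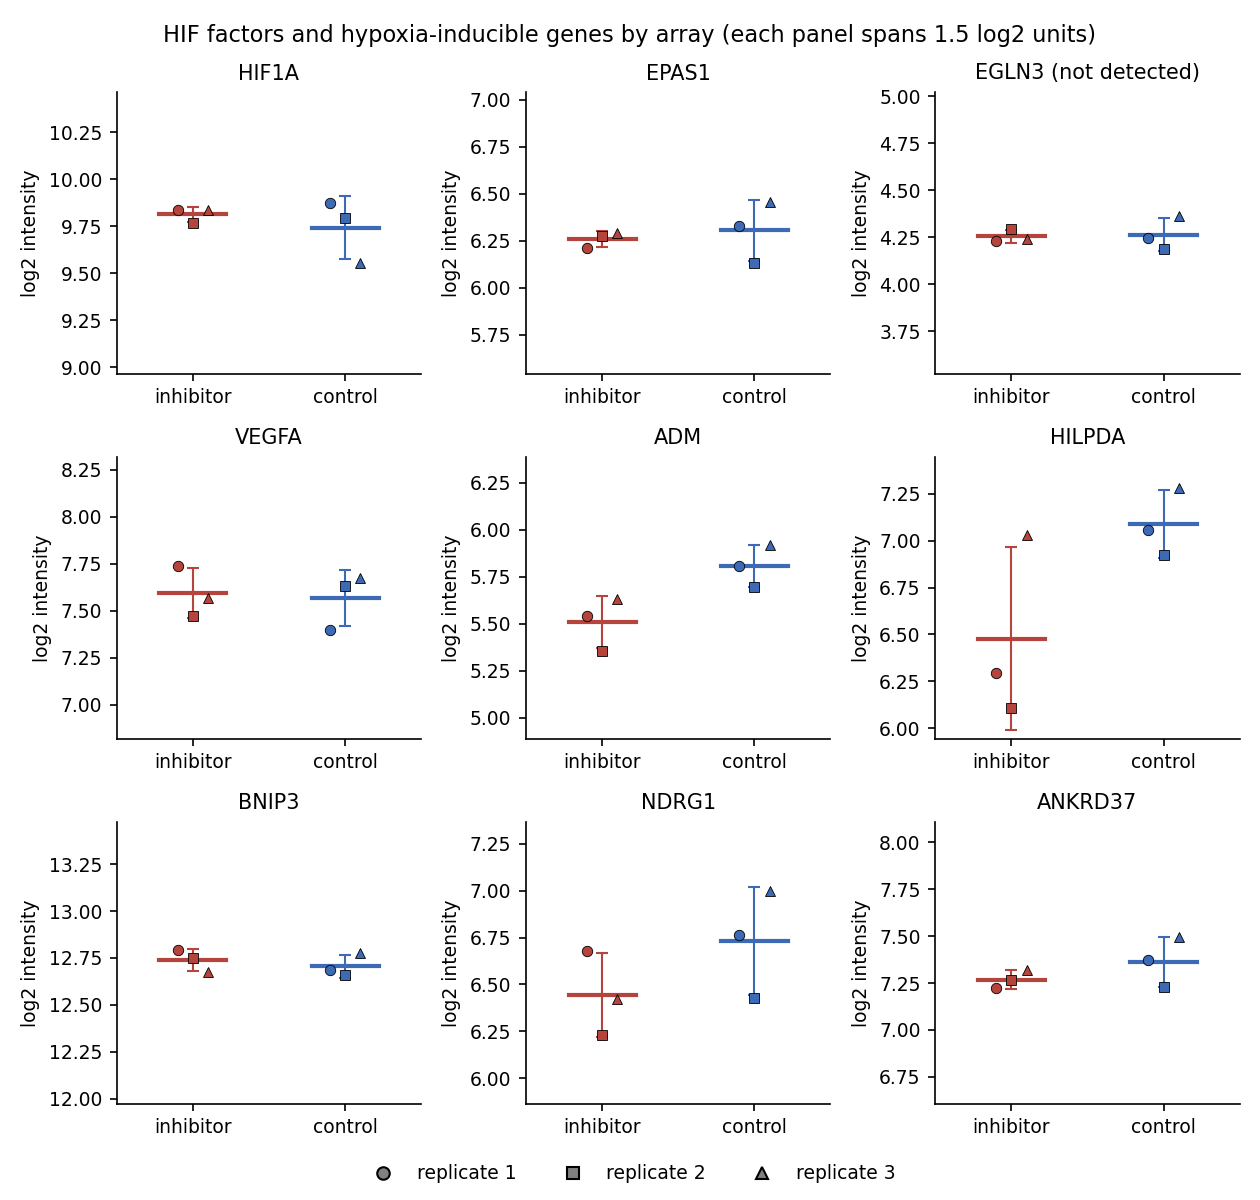
Log2 intensity on each array for the brightest probe of the 9 genes with a probe, inhibitor arrays left in red and control arrays right in blue; symbols mark the replicate number, horizontal bars the group mean and vertical bars the SD (n = 3). HILPDA has 2 inhibitor arrays at 6.11 and 6.29 below all controls and another at 7.03 among them, while the HIF1A, VEGFA and BNIP3 groups overlap.

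The alpha subunits come first. HIF1A, the broadly expressed oxygen-regulated subunit, had 3 probes, all detected on all 6 arrays. Its brightest probe (ILMN_1763260) read 9.84, 9.77 and 9.84 on inhibitor arrays, against 9.88, 9.80 and 9.55 on control arrays. The inhibitor arrays lay within the range of the controls, and control replicate 3 was the lowest of all. The log2 difference was 0.07 ± 0.09 (SE; 95% interval −0.13 to 0.27), or −0.02 without control replicate 3.

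The second HIF1A probe (ILMN_2379788) read 8.98, 8.94 and 8.96 on inhibitor arrays, against 8.89, 9.03 and 8.54 on control arrays. The other probe (ILMN_1681283) read 8.67, 8.68 and 8.84 on inhibitor arrays, against 8.68, 8.67 and 8.31 on control arrays. On all 3 probes control replicate 3 was the lowest array, and the groups overlapped. The differences of these other probes were 0.14 ± 0.12 and 0.17 ± 0.11. The SD among inhibitor arrays was 0.0396, 0.0241 and 0.0979 log2 units for the 3 probes, against 0.167, 0.252 and 0.210 among control arrays.

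EPAS1 encodes the HIF-2 alpha subunit, best known in endothelium, kidney and renal cancer. Its single probe (ILMN_1704753) read 6.21, 6.28 and 6.29 on inhibitor arrays, against 6.33, 6.13 and 6.46 on control arrays. The inhibitor values lay inside the control range. The difference was −0.05 ± 0.09 (95% interval −0.24 to 0.15), and 0.03 without control replicate 3, here the highest array.

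EGLN3 encodes PHD3, a prolyl hydroxylase that is itself hypoxia-inducible. Its only probe (ILMN_1667626) read 4.23, 4.29 and 4.24 on inhibitor arrays and 4.25, 4.19 and 4.36 on control arrays. It was not well above background on any of the 6 arrays (detection p 0.177 to 0.729). It was therefore not tested, and no fold is given.

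VEGFA and ADM encode secreted peptides. VEGFA, the main growth factor of blood vessels, had 3 probes of which 2 were detected. The brightest (ILMN_2375879) read 7.74, 7.47 and 7.57 on inhibitor arrays, against 7.40, 7.63 and 7.67 on control arrays. The groups overlapped, and the difference was 0.03 ± 0.10 (95% interval −0.19 to 0.24). It was −0.05 without inhibitor replicate 1 and −0.06 without control replicate 1.

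The second VEGFA probe (ILMN_1803882) read 5.97, 5.90 and 5.60 on inhibitor arrays, against 5.86, 5.55 and 5.67 on control arrays. These also overlapped, with a difference of 0.13 ± 0.11. The other probe (ILMN_1693060), at 4.27 to 4.31 on inhibitor arrays and 4.20 to 4.29 on control arrays, was not well above background on any array. On neither detected probe of VEGFA was the difference larger than the spread between replicates.

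ADM encodes adrenomedullin, a vasodilator peptide. Its probe (ILMN_1708934) read 5.54, 5.35 and 5.63 on inhibitor arrays, against 5.81, 5.69 and 5.92 on control arrays. All 3 inhibitor arrays lay below all 3 control arrays, the nearest at 5.63 (inhibitor) and 5.69 (control), with SDs of 0.140 and 0.113. The group means were 5.51 and 5.81, a log2 difference of −0.30 ± 0.09 (95% interval −0.50 to −0.09), or 0.813-fold, with an adjusted p of 0.567 in limma. The difference stayed below 0 with any 1 array left out (−0.36 to −0.22). Before correction the same probe gave 71.3, 71.9 and 75.3 intensity units on inhibitor arrays and 86.0, 76.6 and 78.6 on control arrays. On the deposited normalized values, which keep the background, the difference was −0.18, and it was −0.20 with quantile normalization and no background correction.

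The difference of largest size belonged to HILPDA, a small protein of lipid droplets that inhibits adipose triglyceride lipase. Its probe (ILMN_1659990) read 6.29, 6.11 and 7.03 on inhibitor arrays, against 7.05, 6.92 and 7.28 on control arrays. Inhibitor replicates 1 and 2 lay below every control, and inhibitor replicate 3 lay above control replicate 2. The inhibitor was lower in 8 of the 9 pairs of an inhibitor with a control array. The group means were 6.48 ± 0.486 and 7.09 ± 0.180 (SD, n = 3 each).

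This gave HILPDA a log2 difference of −0.61 ± 0.21 (95% interval −1.07 to −0.14), or 0.655-fold, rank 2 from the lowest of 12087 genes. It was −0.89 without inhibitor replicate 3 and −0.43 without inhibitor replicate 2. In limma its adjusted p was 0.602, with a range of 0.0307 to 0.901 over the alternatives. The lowest of these came with the arrays left unnormalized to each other, the one setting in which HILPDA passed. The difference was also −0.61 there, but limma gave all 8 tested genes the same SE in that fit, 0.137, in place of 0.206 for HILPDA. In uncorrected intensity units HILPDA read 100.2, 104.5 and 151.7 on inhibitor arrays, against 167.8, 149.0 and 164.7 on control arrays.

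HILPDA also had few and noisy beads. Between 23 and 33 beads carried its signal on an array, where the median probe had 40 to 41. The spread of these beads gave an error of 0.146 to 0.230 log2 units per array on the background-corrected scale. Carried to the difference of group means, the beads alone gave an error of 0.149, against the fitted SE of 0.206. For ADM, with 32 to 49 beads, the bead error of the difference was 0.0702 and the SE 0.0905. The spread of HILPDA between replicates (pooled SD 0.367) was above that of 99.9% of all genes tested.

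BNIP3 encodes a mitochondrial outer membrane protein that acts in mitophagy and cell death. Its probe (ILMN_1724658) read 12.79, 12.75 and 12.67 on inhibitor arrays, against 12.69, 12.66 and 12.78 on control arrays. The groups overlapped, and the difference was 0.03 ± 0.07 (95% interval −0.12 to 0.18). Its sign turned when the arrays were not normalized to each other (−0.01) and under median scaling (−0.01). The spread of BNIP3 between replicates, a pooled SD of 0.0606, was above that of 20.1% of all genes tested, the smallest among the 8.

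NDRG1 encodes a stress-responsive cytoplasmic protein. Its probe (ILMN_1809931) read 6.68, 6.23 and 6.42 on inhibitor arrays, against 6.76, 6.43 and 7.0 on control arrays. The groups overlapped, with the lowest control beside the middle inhibitor array, and the inhibitor was lower in 8 of 9 pairs. The difference was −0.29 ± 0.15 (95% interval −0.63 to 0.05; adjusted p = 0.711 in limma). It was −0.15 without control replicate 3 and −0.44 without control replicate 2. The pooled SD of NDRG1, 0.258, was above that of 98.4% of all genes tested.

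ANKRD37 encodes a small ankyrin repeat protein of little known function, induced by HIF-1; its promoter window, printed above, holds CACGTG and a further ACGTG. Its probe (ILMN_1756417) read 7.22, 7.26 and 7.32 on inhibitor arrays, against 7.37, 7.23 and 7.49 on control arrays. The groups overlapped, with all 3 inhibitor arrays below control replicates 1 and 3, and the inhibitor was lower in 7 of 9 pairs. The difference was −0.10 ± 0.08 (95% interval −0.28 to 0.08), or −0.03 without control replicate 3 and −0.16 without control replicate 2.

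**Figure D2:**
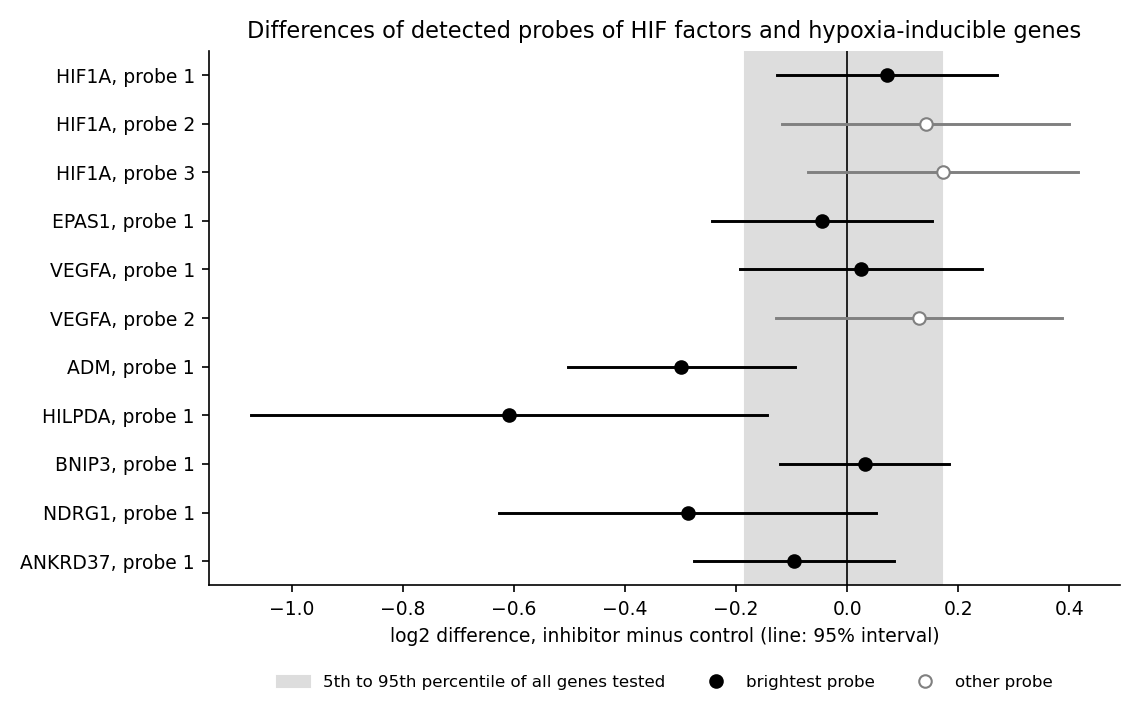
Log2 difference (inhibitor minus control) of the 11 detected probes, filled points for the brightest probe of a gene and open points for its other probes; lines are 95% intervals and the grey band the 5th to 95th percentile of all genes tested (−0.18 to 0.17). ADM (−0.30), HILPDA (−0.61) and NDRG1 (−0.29) lie left of the band, and all other probes lie inside it or at its edge.

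Within each group the same arrays were often the highest or the lowest for several of the 8 genes. Control replicate 3 was the highest control for 7 of the 8, HIF1A being the exception, and for 39.8% of all genes tested. Control replicate 2 was the lowest control for 6 of the 8, and for 34.9% of all genes. Among inhibitor arrays, replicate 2 was the lowest for 5 of the 8 and the highest for 0, against 30.3% and 35.9% of all genes. Inhibitor replicates 1 and 3 were the highest for 4 each. For ADM and HILPDA, replicate 3 was the highest and replicate 2 the lowest in both groups.

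The order was also read in other HIF targets. Of 20 glycolytic targets, 11 were highest on control replicate 3 and 13 were lowest on control replicate 2 among the controls. On the inhibitor side 11 of the 20 were highest on replicate 2 and 3 lowest. Of 40 other non-glycolytic targets, 16 were highest on control replicate 3, 15 lowest on control replicate 2, and 20 lowest on inhibitor replicate 2. These orders are descriptions of 3 arrays per group and carry no test. The median difference of the 8 genes was −0.03 without control replicate 3 and −0.15 without control replicate 2.

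**Figure D3:**
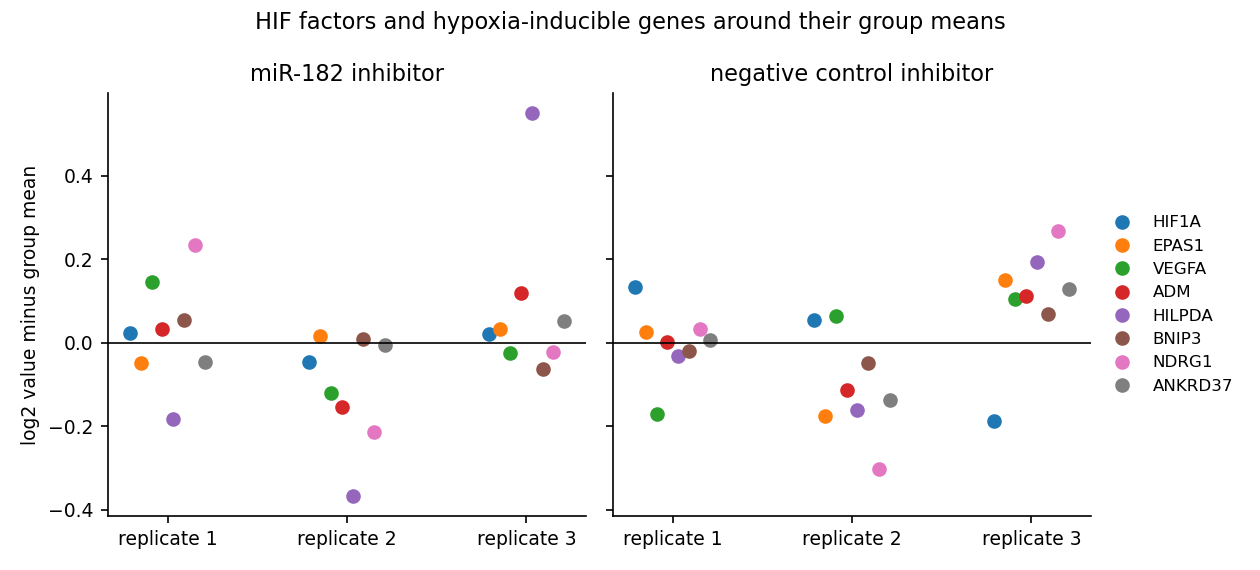
Log2 value minus the mean of its own group for the 8 tested genes, by replicate number, inhibitor arrays left and control arrays right; each colour is one gene. Control replicate 3 lies above 0 for 7 of 8 genes and inhibitor replicate 2 holds the lowest value for 5 of 8. Over all genes the replicate numbers did not pair arrays across the panels.

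The rest of the pathway was read from lists of 132 other genes, of which 124 had a probe and 107 were tested. In limma 0 of the 107 passed in either direction (lowest adjusted p = 0.602), against 0% of all genes. At an unadjusted p under 0.05 there were 2 lower and 1 higher, where 4.15% and 3.5% of all genes were. The groups stood apart for 6 with the inhibitor lower and 7 with it higher, where 6.23% and 6.8% of all genes did. By brightest probes their differences lay below 0 for 57 and above 0 for 50, with a median of −0.0042.

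Partners and regulators of the alpha subunits come first. Of the beta and other alpha subunits, ARNT and HIF3A were detected on 1 and 2 arrays and not tested, and ARNT2 lay at −0.04 ± 0.07. In the oxygen sensing and degradation list, 0 of 11 tested genes passed. By their brightest probes 5 lay below and 6 above 0, and the median was 0.04. Farthest from 0 were OS9, a lectin that also binds HIF-1 alpha (−0.22 ± 0.13), and EGLN1, the main prolyl hydroxylase PHD2 (−0.15 ± 0.07, adjusted p = 0.651 in limma). The EGLN1 groups stood apart with the inhibitor lower, as for 6.23% of all genes. In the same list the CUL2 groups stood apart with the inhibitor higher, as for 6.8% of all genes. In the coregulator list, 0 of 8 passed. By their brightest probes 7 lay above 0, with a median of 0.06, or 0.04 with the arrays left unnormalized or median scaled. CITED2, which competes with HIF for its coactivators and is induced by it, lay at 0.15 ± 0.08. CREBBP, one of these coactivators, lay at 0.12 ± 0.06, or −0.10 with its second probe. NCOA1 and RUVBL1 also changed sign, from 0.10 and 0.06 on the brightest probe to −0.43 ± 0.11 and −0.09 ± 0.08 on the second. The direction of this list therefore depends on the probe taken. By brightest probes the groups stood apart for CREBBP with the inhibitor higher and for RUVBL2 with it lower, as for 6.8% and 6.23% of all genes.

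Of 40 other non-glycolytic HIF targets tested, 0 passed. By their brightest probes 22 lay below and 18 above 0, and the median was −0.0088. Some signs depended on the probe. WSB1 lay at 0.18 ± 0.08 and TMEM45A at 0.19 ± 0.07, but at −0.23 ± 0.11 and −0.11 ± 0.10 on their second probes. IGFBP3 went the other way, from −0.11 ± 0.06 to 0.08 ± 0.10. Farthest from 0 by brightest probes were DDIT4, an mTOR inhibitor induced by stress (−0.25 ± 0.11), and ANKZF1, which acts in ribosome quality control (−0.21 ± 0.12, with 0.04 and −0.00025 on its other probes). Of the 20 glycolytic targets 0 passed. By their brightest probes 16 lay below and 4 above 0, where 50% of all genes lay below 0. The median was −0.05, or −0.09 with the arrays left unnormalized or median scaled. Second probes put PGK1 at 0.0042 (−0.14 on the brightest), PGAM1 at 0.06 (−0.02) and PFKFB3 at 0.02 (−0.02). PKM lay at −0.06 and −0.03 on its other probes (0.04 on the brightest). Other probes of ALDOA, HK1, HK2 and TPI1 stayed below 0, HK2 at −0.26 ± 0.08. The 2 farthest from 0 by brightest probes were PDK1, which restrains pyruvate entry into mitochondria (0.27 ± 0.16), and PFKFB4, a regulator of glycolytic flux (−0.24 ± 0.13).

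Genes that work with the 10 were read the same way. Among lipid droplet genes, 0 of 8 passed and, by their brightest probes, 4 lay on each side of 0. PNPLA2, the lipase that HILPDA inhibits, lay at −0.17 ± 0.09, and CIDEC, a lipid droplet fusion protein, at 0.12 ± 0.11. Among receptors and relatives of VEGFA and ADM, 0 of 6 passed and, by their brightest probes, 5 lay above 0. The coreceptor NRP1 counted among these at 0.05 ± 0.07, but lay at −0.18 ± 0.07 on its second probe. VEGFB, below 0 at −0.05 ± 0.06, lay at −0.0069 and 0.08 on its other probes. Farthest from 0 were the coreceptor NRP2 at 0.15 ± 0.10 (−0.09, 0.06 and 0.0073 on its other probes) and RAMP2, a partner of the adrenomedullin receptor, at 0.14 ± 0.08 (0.0091 on its second probe). The receptors FLT1 and CALCRL were not detected on any array, and KDR on 2.

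Among mitophagy genes, 0 of 8 passed and, by their brightest probes, 4 lay on each side of 0. GABARAPL2 counted below 0 at −0.03 ± 0.08, but lay at 0.36 ± 0.17 on its second probe. Farthest from 0 by brightest probes were FUNDC1 and BCL2. FUNDC1, a mitophagy receptor, lay at 0.16 ± 0.10 and the survival factor BCL2 at 0.10 ± 0.06. The BCL2 groups stood apart with the inhibitor higher, as for 6.8% of all genes. Of the relatives of NDRG1, NDRG3 lay at −0.10 ± 0.08 (−0.02 on its second probe) and NDRG2 at −0.09 ± 0.10. Of 4 tested genes for carbonic anhydrases and pH, 2 lay below and 2 above 0 by their brightest probes. CA12, a membrane carbonic anhydrase like CA9, lay at −0.09 ± 0.07 and the bicarbonate transporter SLC4A4 at −0.08 ± 0.10. On the other side, SLC4A7 lay at 0.05 ± 0.07, and at 0.16 ± 0.08 on its second probe. CA2 lay at 0.02 ± 0.09, or −0.0052 on its second probe.

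**Figure D4:**
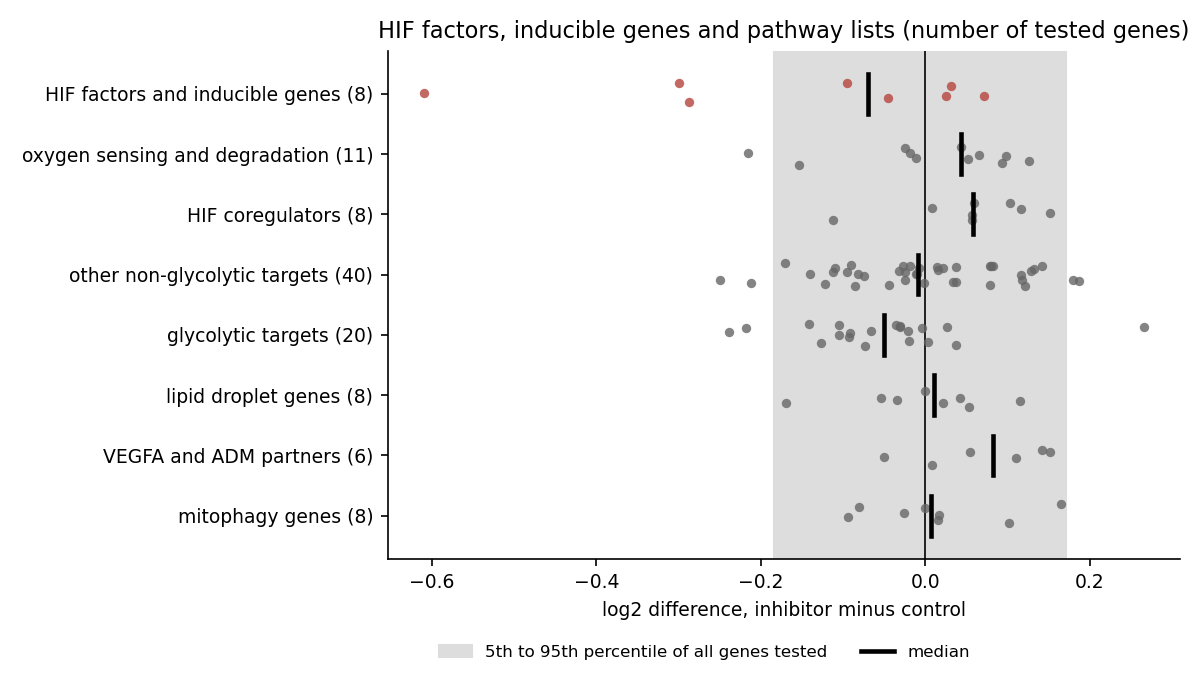
Log2 difference (inhibitor minus control) of each tested gene in red for the 8 HIF factors and inducible genes and in grey for the pathway lists, with medians as black bars and the 5th to 95th percentile of all genes as a grey band. HILPDA at −0.61 stands alone at the left, and the medians of the 7 pathway lists lie between −0.05 and 0.08.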

How the data were processed

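RNA from 6 ES-2 cultures was measured on Illumina bead arrays. Each array's deposited file gives, per the file headers, every probe's averaged intensity (linear), the SD and count of its beads, and a detection fraction from 0 to 1. BeadStudio is named, without a version, in the submitters' processing notes. One minus this fraction was used as detection p. Signal ranks are shared with the authors' deposited value table, so ranks on the 6 arrays paired all 48803 probes with their names, and GEO's platform annotation named the genes. Intensities were corrected and quantile normalized with neqc (offset 16) of limma 3.58.1 in R 4.3.3, then fitted with lmFit and eBayes, 2-sided, with Benjamini-Hochberg adjustment over 12087 genes. Second probes took SEs from a fit of all 21349 detected probes.

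The genes and lists were chosen with earlier results of these data known. Named were all 10 genes and, of each pathway list, the 2 tested genes farthest from 0 by brightest probe, since none passed. Some further genes were named for groups that stood apart, for their other probes, for their side of 0 or for low detection. Replicate numbers, from the labels, did not pair arrays over all genes: deviations of same-numbered arrays from their group means correlated across genes at 0.020, 0.0032 and −0.0060. With these numbers as a block, the SE fell for some of the 10 genes and rose for others, as given in the closing section. Slides and scan dates are not given in the sources used here; batches were not tested. The number of arrays, 3 per group, limits precision. Sequences are RefSeq's, GRCh38.p14. Alternatives are in the closing section.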

Additional observations from a re-analysis of the deposited data

How the results depend on the processing

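Counts of genes called in limma were 0 under 14 of the 15 alternatives, each 1-array omission included (0 to 0; the 10 genes 0 to 0), and 5 with the arrays left unnormalized to each other, with HILPDA the 1 called among the 10 genes; that fit used the same SE, 0.137, for all 8 tested genes of the 10. With the replicate number as a block (replicate block), 0 genes passed and 880 had an unadjusted p under 0.05. The SE then fell from 0.206 to 0.116 for HILPDA, from 0.151 to 0.104 for NDRG1 and from 0.0905 to 0.0673 for ADM. It fell by less for HIF1A, EPAS1 and ANKRD37. For VEGFA it rose from 0.0964 to 0.107, and for BNIP3 from 0.0673 to 0.0753. ADM, HILPDA, NDRG1 and ANKRD37 lay below 0 in each of the 13 alternatives computed for single genes. Among these, the replicate block, no detection filter and a stricter detection filter could not move the differences, because none changes a group mean. The other alternatives reused the same arrays, or all but 1 of them, for genes chosen on the inhibitor-against-control contrast. The count of 13 is therefore a description and no test of the sign. The median of the 8 genes ran from −0.148 (without control replicate 2) to −0.026 (without control replicate 3) with 1 array left out. List medians with 1 array left out ran from −0.011 to 0.054 for oxygen sensing, 0.036 to 0.091 for coregulators, −0.014 to 0.0064 for other non-glycolytic targets, −0.085 to −0.033 for glycolytic targets, −0.018 to 0.039 for lipid droplet genes, 0.046 to 0.101 for VEGFA and ADM partners and −0.012 to 0.019 for mitophagy genes. With no normalization between arrays, and then with median scaling over detected probes, the median of all genes was −0.014 and −0.015, that of oxygen sensing 0.0051 and 0.0036, other non-glycolytic targets −0.021 and −0.023, glycolytic targets −0.088 and −0.089, coregulators 0.037 and 0.036, lipid droplet genes −0.020 and −0.022 and mitophagy genes −0.026 and −0.027. The glycolytic and coregulator medians, taken over the brightest probe of each gene, kept their direction. VEGFA and ADM partners had 0.058 in the deposited value table and 0.039 with no detection filter. The cause of these moves in list medians was not tested.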
